A study of Rattus norvegicus with 12 samples.

Results

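The genes described here carry the signal of the insulin receptor. They are the receptor *Insr*, its docking proteins *Irs1* and *Irs2*, the phosphatidylinositol 3-kinase (PI3K) subunits *Pik3r1* and *Pik3ca*, the kinases *Akt1* and *Akt2*, the phosphatase *Ptpn1* and the adaptor *Grb10*. These 9 genes were taken as a list, out of 16581 genes named on the arrays. A probe was assigned to a gene by the RefSeq transcript that the array files give for it, without its version. By this rule 8 of the 9 genes had a probe, with 13 probes in all, and no probe was named for *Grb10*. All 8 measured genes passed the filter on dim probes.

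RNA was measured on 12 Agilent 1-colour arrays in L6 cells, which come from rat skeletal muscle and fuse into myotubes in culture. The myotubes received DMSO alone (control), or GR24, pinosylvin or resveratrol at 60 µM in DMSO, and all 4 groups, with 3 arrays each, were taken after 24 h. GR24 is a synthetic analog of strigolactones, which are plant hormones. Pinosylvin and resveratrol are plant stilbenes, and resveratrol has an additional hydroxyl group on the ring that carries none in pinosylvin. The replicates were separate experiments on 1 batch of cells of this line, with 6 days of differentiation by the sample labels and 7 days by the methods of the study.

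Insulin binding switches on the tyrosine kinase of its receptor, which phosphorylates docking proteins. These recruit PI3K, whose lipid product brings Akt to the membrane, where it is activated. In skeletal muscle this route raises glucose uptake and the synthesis of glycogen and protein, and phosphatases and inhibitory adaptors limit it. The arrays measured RNA, and the activity of these proteins was not analysed here.

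Each level below is the log2 of the processed signal of a probe minus the 75th percentile of its own array, so a level can be compared between arrays for 1 probe and not between probes. A gene with several probes was represented by its probe of highest average level. Differences, their standard errors (SE), 95% intervals and adjusted p-values came from 1 limma fit of all 12 arrays over 24279 tested probes, two-sided, with a threshold of 0.05 on the adjusted p. Spots marked as well above background made up 59.5% to 64.3% of the control arrays, 58.0% to 62.5% with GR24, 60.2% to 62.0% with pinosylvin and 61.7% to 64.0% with resveratrol. The number of arrays limits the precision of every value. Slide 1 carried replicates 1 and 2 of all groups, and slide 2 carried replicate 3.

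Markers of myotubes were checked first. All 10 listed genes (*Myog*, *Myod1*, *Des*, *Ckm*, *Acta1*, *Actc1*, *Myh3*, *Tnnt3*, *Tnnt1* and *Cav3*) were well above background on every control array, and the probe of *Myh3* gave the strongest signal. The sum of the 10 signals, in multiples of the 75th percentile of the array, is set by the brightest probes and serves only to compare arrays. It was 794, 862 and 744 on the control arrays and 317, 304 and 297 with GR24, and 884, 916 and 846 with pinosylvin and 652, 669 and 622 with resveratrol. The GR24 arrays lay far below all others, the resveratrol arrays lay below the control arrays, and the pinosylvin arrays overlapped them. With GR24, 9 of the 10 genes were lower, with a median log2 difference of -2.49, and *Myod1* was not well above background on any GR24 array. With resveratrol 6 of 10 were lower (median -0.33), and with pinosylvin 2 of 10 were higher (median 0.17). In bulk RNA a smaller share of differentiated cells and less of these RNAs per cell cannot be told apart. The part of these shifts in the results for the insulin receptor genes was not tested.

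The comparisons of each compound with the control ask which transcripts differed after the treatment, and those between compounds ask whether their responses differed. They are 6 comparisons, and those with the control share its 3 arrays. With GR24, 4 of the 8 genes were higher (*Insr*, *Irs1*, *Pik3r1* and *Ptpn1*), beside 31.5% of all tested probes, and 1 was lower (*Akt2*), beside 25.5%. With pinosylvin no gene passed the threshold in limma, beside 8.28% of probes higher and 8.27% lower, both shares at the adjusted threshold. The number at an unadjusted p under 0.05 was also 0, and the share of all probes at that cut is not given here. With resveratrol 2 genes were higher (*Irs1* and *Pik3r1*), beside 7.99%, and 1 was lower (*Akt2*), beside 8.99%. The median log2 difference of the 8 genes was 0.18 with GR24, 0.05 with pinosylvin and 0.14 with resveratrol, beside 0.03, 0.05 and 0.01 over all tested probes. These shares and medians are over probes, while each of the 8 genes was counted once, by its representative probe. Over 10741 named genes, with the probes of a gene averaged, the medians were 0.09, 0.04 and 0.02. With GR24 37.8% of them were higher and 26.8% lower, with pinosylvin 10.6% and 10.4%, and with resveratrol 10% and 11.4%.

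Between the stilbenes, pinosylvin minus resveratrol, 1 gene was lower (*Pik3r1*), beside 6.85% of probes, and 0 were higher in limma, beside 7.68%. Both shares are at the adjusted threshold. At an unadjusted p under 0.05, 1 was higher (*Akt2*), again with no share of all probes at that cut. The median was -0.01, beside 0.02 over all tested probes. For GR24 minus pinosylvin, 3 genes were higher (*Insr*, *Pik3r1* and *Ptpn1*), beside 29.6%, and 1 was lower (*Pik3ca*), beside 26.8%. For GR24 minus resveratrol, 2 were higher (*Insr* and *Ptpn1*), beside 27.4%, and 1 was lower (*Pik3ca*), beside 23.9%. Both *Pik3ca* counts rest on its representative probe, and its other probes differ, as given with that gene. Since GR24 moved a large share of all probes, the number of genes called in its comparisons says little about these genes as a list, and each gene is given by its own values. With the replicate number as a block, which takes up differences between the experiments and between the slides, more probes passed the threshold in the comparisons of the stilbenes. The number was 6947 in place of 4019 for pinosylvin against the control, 6769 in place of 4123 for resveratrol against the control, and 6323 in place of 3528 between them.

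**Figure D1:**
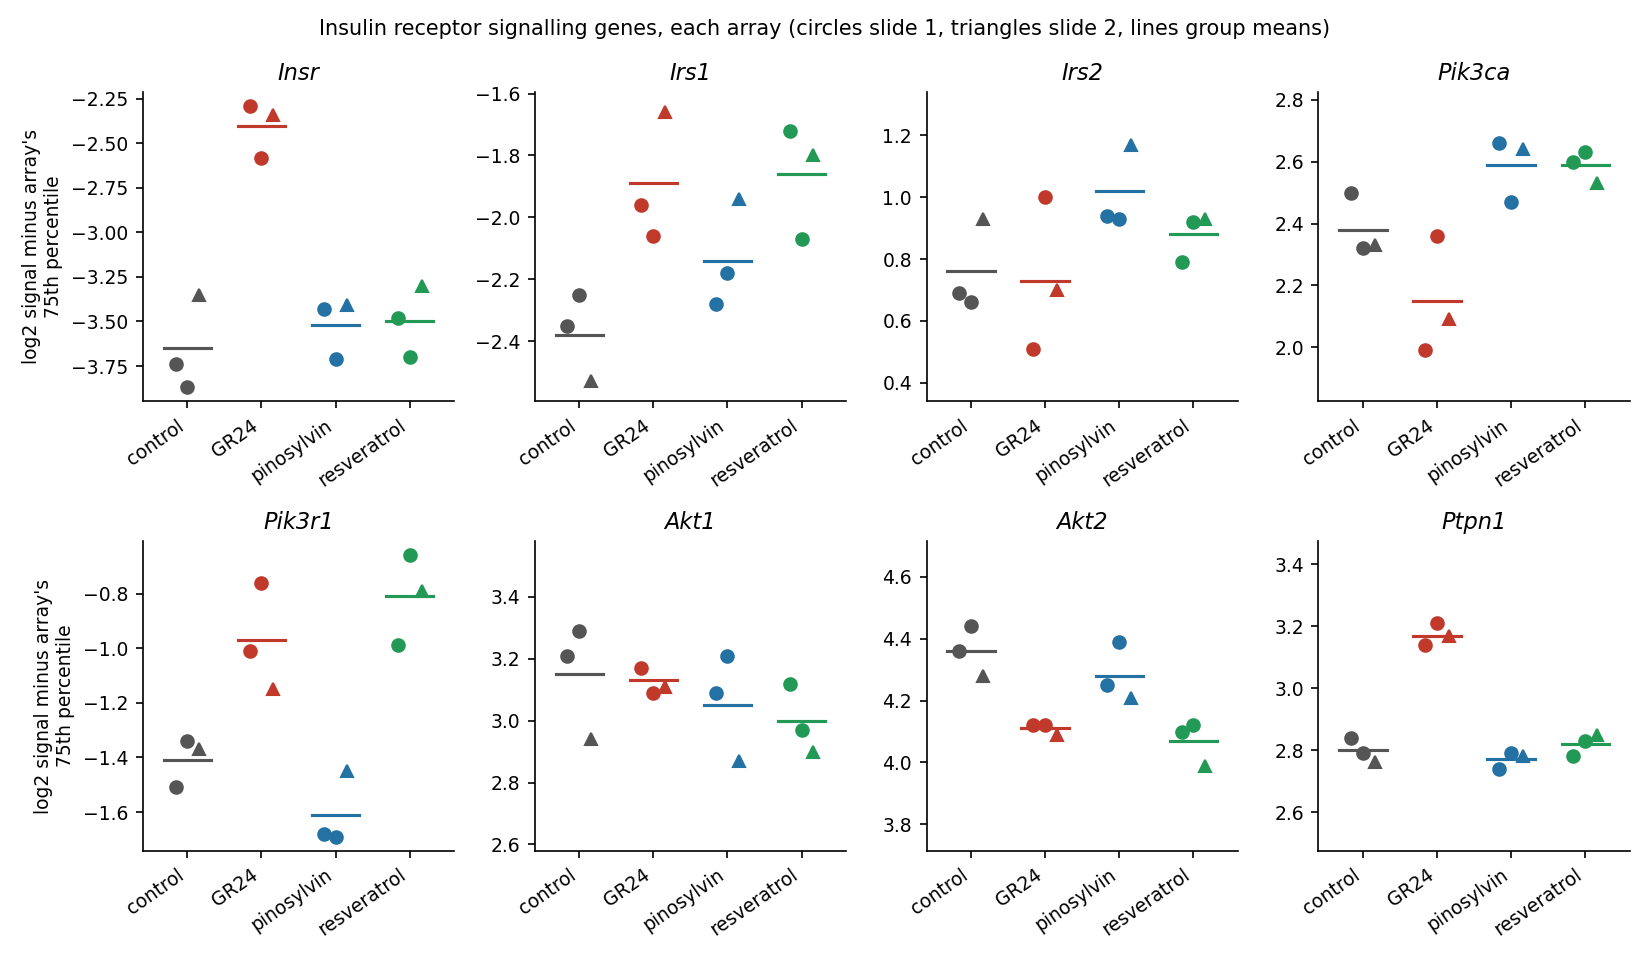
Level of each measured gene on each array (log2, scaled by the 75th percentile), by group, with circles for slide 1, triangles for slide 2 and a line for the mean of the 3 arrays. The GR24 arrays stand above all others for *Insr* and *Ptpn1*, and the resveratrol and GR24 arrays stand above the control and pinosylvin arrays for *Pik3r1*.

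*Insr* encodes the insulin receptor itself. Its level was -3.74, -3.87 and -3.35 on the control arrays and -2.29, -2.58 and -2.34 with GR24. It was -3.43, -3.71 and -3.41 with pinosylvin and -3.48, -3.70 and -3.30 with resveratrol. The 3 GR24 arrays were high and overlapped with no other group, and the remaining 9 arrays lay together. The log2 difference between GR24 and the control was 1.25 (SE 0.15, 95% interval 0.90 to 1.59, adjusted p = 5.25e-05), a signal 2.38-fold higher. Against pinosylvin it was 1.11 (adjusted p = 0.000129) and against resveratrol 1.09 (adjusted p = 0.000173). In the order of means, GR24 at -2.40 was followed by resveratrol at -3.50, pinosylvin at -3.52 and the control at -3.65, and the last 3 did not differ beyond their spread. The probe, A_64_P085396, was dim, with a processed signal of 50 to 102 on the control arrays and 140 to 196 with GR24, but none of the 12 arrays had it near background by the mark of the software. Background correction by normexp, whose offset draws dim signals together, gave a smaller log2 difference of 0.70, still past the threshold. On slide 2 alone the difference was 1.01.

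The docking protein encoded by *Irs1* is phosphorylated by the receptor and binds PI3K. Its level was -2.35, -2.25 and -2.53 on the control arrays and -1.96, -2.06 and -1.66 with GR24. It was -2.28, -2.18 and -1.94 with pinosylvin and -1.72, -2.07 and -1.80 with resveratrol. The control arrays were the low ones, all GR24 and all resveratrol arrays lay above them, and the pinosylvin arrays reached into both ranges. The log2 difference from the control was 0.49 with GR24 (SE 0.14, 95% interval 0.18 to 0.79, adjusted p = 0.0114) and 0.51 with resveratrol (SE 0.14, 95% interval 0.21 to 0.82, adjusted p = 0.0284). With pinosylvin it was 0.24 (95% interval -0.07 to 0.55, adjusted p = 0.285), with 0.07 on slide 1 alone and 0.58 on slide 2 alone. The order of means was resveratrol at -1.86, GR24 at -1.89, pinosylvin at -2.14 and the control at -2.38, and no neighbours in this order differed beyond their spread.

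The 2 calls for *Irs1* were not equally firm. The GR24 call held without any 1 array, with an adjusted p of up to 0.0443, but not on slide 1 alone, where the log2 difference was 0.29 (adjusted p = 0.082). On slide 2, which gives a value with no test, it was 0.87. The resveratrol call was lost without control replicate 1 (adjusted p = 0.069) or 3 (0.0848) and without resveratrol replicate 1 (0.101) or 3 (0.0863). The log2 differences were then 0.53, 0.44, 0.44 and 0.48. It was also lost with normexp and the 75th percentile (0.28, adjusted p = 0.117), in the deposited table of normalized values (0.42, adjusted p = 0.0513), with no filter on dim probes (0.51, adjusted p = 0.0799) and on slide 1 alone (0.40, adjusted p = 0.0735). Over all alternatives other than arrays left out, its adjusted p was at most 0.117.

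*Irs2* encodes the other docking protein of this pair of relatives. Its level was 0.69, 0.66 and 0.93 on the control arrays and 0.51, 1.00 and 0.70 with GR24. It was 0.94, 0.93 and 1.17 with pinosylvin and 0.79, 0.92 and 0.93 with resveratrol. The GR24 arrays spread the most and spanned the control range, and the pinosylvin arrays were at or above the highest control array. No comparison passed the threshold. The log2 difference from the control was -0.02 with GR24 (95% interval -0.31 to 0.26, adjusted p = 0.893), 0.26 with pinosylvin (-0.03 to 0.55, adjusted p = 0.214) and 0.12 with resveratrol (-0.16 to 0.41, adjusted p = 0.611). The sign of the GR24 value flipped under quantile normalization (0.03). The order of means was pinosylvin at 1.02, resveratrol at 0.88, the control at 0.76 and GR24 at 0.73. No neighbours passed the threshold, although the pinosylvin and resveratrol arrays, close to each other, did not overlap. For GR24 minus pinosylvin the log2 difference was -0.28. Its adjusted p was 0.0852 with no block, 0.0482 with the replicate block and 0.0576 with the slide as a block. Without GR24 replicate 2, the high array of its group, the difference was -0.42 (adjusted p = 0.0141).

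*Pik3r1* encodes a regulatory subunit of PI3K, the part that binds phosphorylated docking proteins. Its level was -1.51, -1.34 and -1.37 on the control arrays and -1.01, -0.76 and -1.15 with GR24. It was -1.68, -1.69 and -1.45 with pinosylvin and -0.99, -0.66 and -0.79 with resveratrol. The GR24 and resveratrol arrays overlapped with each other and lay above all control and pinosylvin arrays, and the pinosylvin arrays reached the lowest levels. The log2 difference from the control was 0.59 with resveratrol (SE 0.12, 95% interval 0.33 to 0.86, adjusted p = 0.00716) and 0.43 with GR24 (SE 0.12, 95% interval 0.17 to 0.70, adjusted p = 0.0101). With pinosylvin it was -0.20 (95% interval -0.47 to 0.06, adjusted p = 0.304). The order of means was resveratrol at -0.81, GR24 at -0.97, the control at -1.41 and pinosylvin at -1.61. Of the neighbours, only GR24 and the control passed the threshold. On slide 2 alone the GR24 difference was 0.23.

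The other two *Pik3r1* probes were A_44_P1082264 and A_64_P395785. With resveratrol their log2 differences were 0.54 (adjusted p = 0.00832) and 0.56 (adjusted p = 0.00493), close to that of the representative probe, A_44_P227655. With GR24 they were 0.26 (adjusted p = 0.0698) and 0.33 (adjusted p = 0.0237), so all 3 probes were higher and 2 passed the threshold. With pinosylvin they were -0.03 and 0.09, neither past the threshold, so the 3 probes did not share a sign. For GR24 minus resveratrol all 3 probes were negative, at -0.16 in the representative probe and -0.28 and -0.24 in the others, none past the threshold (adjusted p = 0.306, 0.0628 and 0.0879). With the probes averaged the difference was -0.22 and passed it (adjusted p = 0.00515). For GR24 minus pinosylvin the representative probe gave 0.64 (adjusted p = 0.00106), and the others gave 0.29 (adjusted p = 0.0449) and 0.24 (adjusted p = 0.0865), so the size and in 1 probe the call were not shared. On slide 2 alone the representative probe gave 0.31.

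The stilbenes differed most at *Pik3r1* among these genes. At the same dose and time, the pinosylvin minus resveratrol log2 difference was -0.80 (SE 0.12, 95% interval -1.06 to -0.53, adjusted p = 0.00175), a signal 1.74-fold higher with resveratrol. All 3 resveratrol arrays lay above all 3 pinosylvin arrays, and no single omitted array moved the value outside -0.88 to -0.72. The other probes gave -0.57 (adjusted p = 0.00726) and -0.47 (adjusted p = 0.015). The intervals of the other genes in this comparison were -0.36 to 0.32 for *Insr*, -0.58 to 0.03 for *Irs1*, -0.15 to 0.42 for *Irs2* and -0.22 to 0.22 for *Pik3ca*. They were -0.19 to 0.31 for *Akt1*, 0.06 to 0.37 for *Akt2* and -0.17 to 0.07 for *Ptpn1*. Their adjusted p-values were 0.0745 or higher, which does not show that the compounds act alike on these genes, and with the replicate block *Akt2* passed the threshold (0.21, adjusted p = 0.0139). In the same comparison 9 of the 10 myotube markers were higher with pinosylvin (median 0.52), and the part of this shift in the result for *Pik3r1* was not tested. The 3 pairs of compounds were each compared, with p-values adjusted over all tested probes within a pair.

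**Figure D2:**
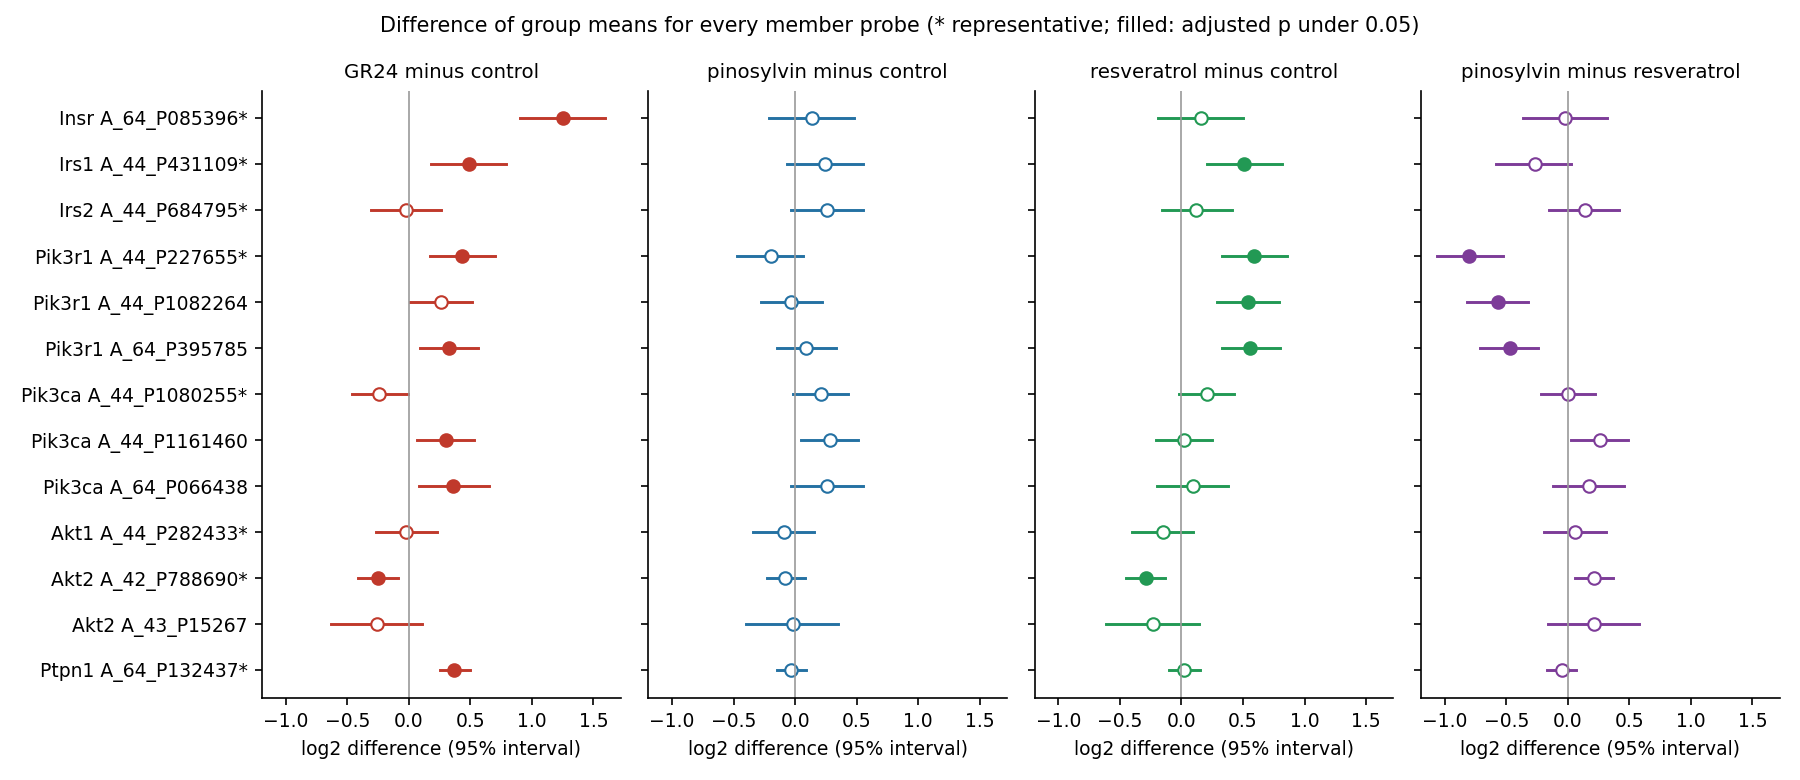
Log2 difference of group means with its 95% interval (x axis) for all 13 probes of the 8 genes (y axis), in 4 comparisons, with filled points at an adjusted p under 0.05 and a star at the representative probe of each gene. The 3 *Pik3r1* probes lie to the right of 0 with resveratrol and to the left in pinosylvin minus resveratrol, while with GR24 1 *Pik3ca* probe lies to the left of 0 and the other two to the right.

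*Pik3ca* encodes a catalytic subunit of PI3K. The level of its representative probe, A_44_P1080255, was 2.50, 2.32 and 2.33 on the control arrays and 1.99, 2.36 and 2.09 with GR24. It was 2.66, 2.47 and 2.64 with pinosylvin and 2.60, 2.63 and 2.53 with resveratrol. The GR24 arrays were low but for replicate 2, which lay within the control range, all resveratrol arrays lay above the control range, and 1 of the pinosylvin arrays lay inside it. The log2 difference of GR24 from the control was -0.24 (95% interval -0.46 to -0.01, adjusted p = 0.0664), from pinosylvin -0.45 (95% interval -0.67 to -0.22, adjusted p = 0.00326) and from resveratrol -0.44 (95% interval -0.67 to -0.22, adjusted p = 0.00373). Without GR24 replicate 2 the difference from the control was -0.34 (adjusted p = 0.00933). Each stilbene differed from the control by 0.21, with adjusted p-values of 0.203 and 0.208. In the order of means, pinosylvin and resveratrol (both 2.59), the control at 2.38 and GR24 at 2.15, no neighbours passed the threshold, although the resveratrol and control arrays did not overlap.

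The other two *Pik3ca* probes, A_44_P1161460 and A_64_P066438, are assigned to the same transcript and went the other way with GR24. Their levels on the control arrays were 1.91, 1.92 and 1.74 for the former and 1.97, 1.87 and 1.82 for the latter. With GR24 they were 2.29, 2.21 and 1.97 for the former and 2.32, 2.44 and 1.99 for the latter, so all GR24 arrays lay above all control arrays. The log2 differences were 0.30 (adjusted p = 0.0306) and 0.36 (adjusted p = 0.0342). Against resveratrol the former was 0.28 (adjusted p = 0.044), opposite in sign to the representative probe. Against pinosylvin they were 0.02 (adjusted p = 0.896) and 0.11 (adjusted p = 0.531), so the call of the representative probe was not shared. With the probes of the gene averaged, the difference of GR24 from the control was 0.14 (adjusted p = 0.184). No single direction can therefore be given for *Pik3ca* RNA with GR24.

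*Akt1* and *Akt2* encode kinases that PI3K activates, and *Akt2* is the one best known for insulin-driven glucose uptake in muscle. The level of *Akt1* was 3.21, 3.29 and 2.94 on the control arrays and 3.17, 3.09 and 3.11 with GR24. It was 3.09, 3.21 and 2.87 with pinosylvin and 3.12, 2.97 and 2.90 with resveratrol. All groups overlapped, and replicate 3, on slide 2, was the low array of the control, pinosylvin and resveratrol groups. The log2 difference from the control was -0.02 with GR24 (95% interval -0.27 to 0.23), -0.09 with pinosylvin (-0.34 to 0.15) and -0.15 with resveratrol (-0.40 to 0.09), with adjusted p-values of 0.89, 0.647 and 0.422. The GR24 value had the opposite sign under quantile normalization (0.07). The order of means was the control at 3.15, GR24 at 3.13, pinosylvin at 3.05 and resveratrol at 3.00, with no neighbours that differed beyond their spread.

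The level of *Akt2* was 4.36, 4.44 and 4.28 on the control arrays and 4.12, 4.12 and 4.09 with GR24. It was 4.25, 4.39 and 4.21 with pinosylvin and 4.10, 4.12 and 3.99 with resveratrol. The GR24 and resveratrol arrays were low and lay below all control and pinosylvin arrays. The log2 difference from the control was -0.25 with GR24 (SE 0.071, 95% interval -0.41 to -0.09, adjusted p = 0.0109) and -0.29 with resveratrol (SE 0.071, 95% interval -0.45 to -0.13, adjusted p = 0.0191). With pinosylvin it was -0.08 (95% interval -0.23 to 0.08, adjusted p = 0.549). The order of means was the control at 4.36, pinosylvin at 4.28, GR24 at 4.11 and resveratrol at 4.07, with no neighbours past the threshold, although the pinosylvin and GR24 arrays did not overlap.

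Some *Akt2* calls depended on the fit. With the replicate block, *Akt2* also passed the threshold between the stilbenes and for GR24 minus pinosylvin (-0.18, adjusted p = 0.0104 in place of 0.0553). The resveratrol call was lost without control replicate 1 (-0.29, adjusted p = 0.0596) or 2 (-0.25, adjusted p = 0.0706) and without resveratrol replicate 3 (-0.25, adjusted p = 0.0739). It was also lost with no filter on dim probes (-0.29, adjusted p = 0.0799) and with only the 6 arrays compared (-0.29, adjusted p = 0.0739), which left the difference itself unmoved. The GR24 call held without any 1 array, with an adjusted p of up to 0.0426. A second probe, A_43_P15267, had like differences of -0.26 with GR24 and -0.23 with resveratrol, with a wider SE of 0.17 and adjusted p-values of 0.221 and 0.418. With both probes averaged neither call was kept, at -0.26 with GR24 (adjusted p = 0.061) and -0.26 with resveratrol (adjusted p = 0.12).

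The phosphatase encoded by *Ptpn1* removes phosphate from the receptor and its docking proteins and so limits the signal. Its level was 2.84, 2.79 and 2.76 on the control arrays and 3.14, 3.21 and 3.17 with GR24. It was 2.74, 2.79 and 2.78 with pinosylvin and 2.78, 2.83 and 2.85 with resveratrol. The GR24 arrays stood apart above the rest, and the remaining 9 arrays lay close together. The log2 difference between GR24 and the control was 0.37 (SE 0.055, 95% interval 0.25 to 0.50, adjusted p = 0.00017), a signal 1.3-fold higher. Against pinosylvin it was 0.40 (adjusted p = 0.000111) and against resveratrol 0.35 (adjusted p = 0.000338). With pinosylvin and resveratrol the differences from the control were -0.03 (95% interval -0.15 to 0.09) and 0.02 (95% interval -0.10 to 0.15). The order of means was GR24 at 3.17, resveratrol at 2.82, the control at 2.80 and pinosylvin at 2.77, and the last 3 did not differ beyond their spread.

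With GR24 the receptor, 1 docking protein, the regulatory subunit and the phosphatase of the receptor and its docking proteins were thus all higher in RNA. These 4 calls, and the lower level of *Akt2*, held without any 1 array. The *Irs1* call was not kept on slide 1 alone, and that of *Akt2* was not kept with its probes averaged. A further probe of *Pik3r1* did not pass the threshold. *Grb10*, whose protein binds the receptor and inhibits it, was not analysed here, since the naming of probes by RefSeq transcript found none for it.

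The wider pathway was taken from the list of 59 genes, of which 50 were other than the 9 above. A probe was named for 44 of these 50, and 39 were tested. With GR24, 18 of the 39 were higher and 9 lower, beside 31.5% and 25.5% of all tested probes, with a median log2 difference of 0.19. Over named genes with their probes averaged the shares were 37.8% and 26.8%, and the median was 0.09. With pinosylvin 4 were higher, beside 8.28%, and 0 were lower in limma, beside 8.27%, both shares at the adjusted threshold. At an unadjusted p under 0.05, 7 were higher and 1 lower (*Pik3cd*), and the share of all probes at that cut is not given here. The count of 4 fell to 1 or 2 without any 1 of the 6 arrays, where all probes past the threshold fell from 4019 to between 2808 and 3433, and to 1 with no filter on dim probes, where 2.25% of all probes were higher. With resveratrol 2 were higher, beside 7.99%, and 0 were lower in limma, beside 8.99%, again at the adjusted threshold. At an unadjusted p under 0.05, 5 were higher and 2 lower (*Rps6kb1* and *Inpp5k*), again with no share of all probes at that cut. Between the stilbenes 4 were higher with pinosylvin and 2 lower, beside 7.68% and 6.85%, and without 1 array these counts ranged from 1 to 4 and from 0 to 3. With no filter on dim probes they were 0 and 0, beside 2.35% and 1.98% of all probes, and with only the 6 arrays compared 1 and 0, beside 5.7% and 4.86%. With the replicate block the counts were 9 higher and 2 lower with pinosylvin, beside 16.3% and 12.3% of all tested probes, and 5 and 5 with resveratrol, beside 14.1% and 13.8%. Between the stilbenes they were then 8 and 7, beside 14.4% and 11.6%.

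The counts by role, with the 9 genes included, stand beside the same 31.5% higher and 25.5% lower over all tested probes. Over named genes with their probes averaged these shares were 37.8% and 26.8%, and most roles hold too few genes to be set against either. GR24 raised 7 of 10 tested docking and adaptor genes and lowered 1, with a median log2 difference of 0.40. Of 7 genes of PI3K and its follower kinase PDK1, 3 were higher. Of 6 genes of Akt kinases and of the complex that phosphorylates Akt, 2 were higher and 3 lower. Of 10 genes that are targets of Akt or belong to the arm of the kinase complex mTORC1, 5 were higher and 1 lower. Of 9 phosphatases 2 were higher and 3 lower, and of 3 other inhibitors 2 were higher and 1 lower. The other inhibitors were 9 in the list, of which 6 had a probe.

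**Figure D3:**
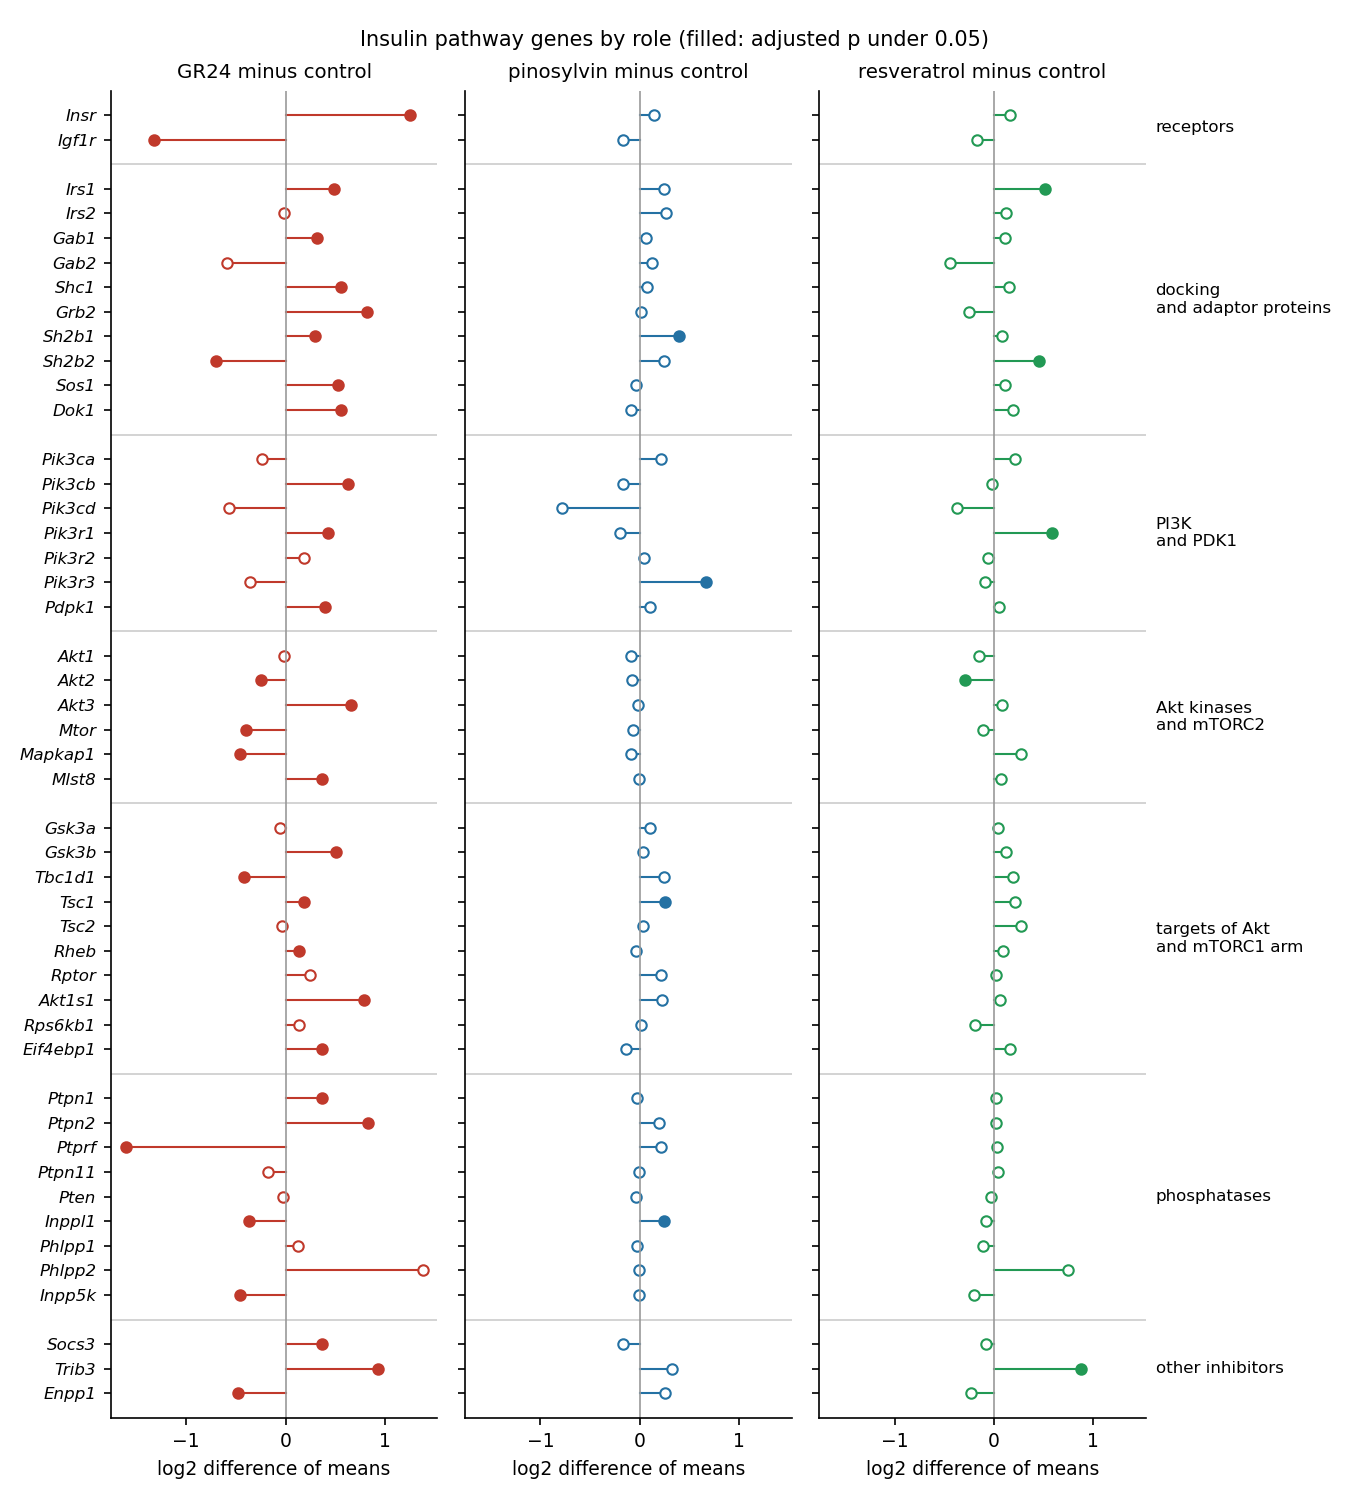
Log2 difference from the control (x axis) for the 47 tested genes of the insulin pathway list (y axis), grouped by role, with filled points at an adjusted p under 0.05, for GR24, pinosylvin and resveratrol. The filled points of the GR24 panel run from -1.61 for *Ptprf* to 1.25 for *Insr*, the open point of *Phlpp2* lies higher at 1.38 (adjusted p = 0.244) through 1 of its GR24 levels of -0.86, -5.01 and -4.81, and the other panels hold few filled points.

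Among the representative probes of the other genes past the threshold, the largest rises with GR24 were in *Trib3*, an inhibitor that binds Akt (0.93, adjusted p = 0.000123), and *Ptpn2*, a phosphatase related to that of *Ptpn1* (0.83, adjusted p = 7.90e-05). They were followed by the adaptor *Grb2* (0.82, adjusted p = 0.000287) and the Akt target *Akt1s1* (0.79, adjusted p = 0.000555). A second probe of *Ptpn2* gave 1.05, whereas a second probe of *Grb2* gave -0.15 and was not past the threshold (adjusted p = 0.165). A larger rise was in a further probe of *Gsk3b*, an Akt target, A_44_P1111001, at 3.52 (adjusted p = 4.06e-10), beside 0.51 in its representative probe (adjusted p = 0.000343) and 0.16 and 0.19 in 2 others, neither past the threshold. The largest falls were in *Ptprf*, a receptor phosphatase (-1.61, adjusted p = 1.42e-05, and -1.72 in a second probe), and *Igf1r*, the receptor of insulin-like growth factor (-1.32, adjusted p = 1.15e-06). The adaptor *Sh2b2* (-0.70, adjusted p = 4.38e-05) and *Enpp1*, which inhibits the receptor (-0.48, adjusted p = 0.00934), came next.

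*Igf1r* was the other tested receptor of the list, since *Insrr* was too dim. The level of its representative probe was 4.66, 4.56 and 4.32 on the control arrays and 3.33, 3.18 and 3.09 with GR24. All GR24 arrays were far below all control arrays, the reverse of *Insr*. A second probe of *Igf1r*, A_44_P474037, named for another transcript, did not follow, with a log2 difference of 0.11 (95% interval -0.18 to 0.40, adjusted p = 0.517). Whether the fall concerns some transcripts of *Igf1r* only was not tested.

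With pinosylvin the genes past the threshold by their representative probe were *Pik3r3*, another regulatory subunit of PI3K (0.67, adjusted p = 0.0275), *Sh2b1* (0.40, adjusted p = 0.00901), *Tsc1* (0.25, adjusted p = 0.0428) and *Inppl1* (0.24, adjusted p = 0.0487). A second *Pik3r3* probe gave 0.58 (adjusted p = 0.045). Of *Tsc1* the other probes gave 0.12 and -0.66, and of *Inppl1* 0.32, none past the threshold. Further probes of *Gsk3b* (0.45, adjusted p = 0.0048) and *Enpp1* (0.30, adjusted p = 0.00637) passed it where the representative probes did not. With resveratrol the genes were *Trib3* (0.88, adjusted p = 0.00114) and *Sh2b2* (0.45, adjusted p = 0.0049), the latter opposite to its fall with GR24, and a further probe of *Enpp1* was lower (-0.20, adjusted p = 0.0443). For pinosylvin minus resveratrol, those higher included *Pik3r3* (0.76, adjusted p = 0.0181), *Enpp1* (0.48, adjusted p = 0.0366) and *Sh2b1* (0.32, adjusted p = 0.0314), and *Trib3* (-0.55, adjusted p = 0.0186) and *Mapkap1* (-0.37, adjusted p = 0.022, but -0.05 in a second probe) were lower. None of these calls between the stilbenes was kept with no filter on dim probes. With the filter, second probes in this comparison gave 0.61 for *Pik3r3* (adjusted p = 0.0399) and 0.49 for *Enpp1* (adjusted p = 0.000405). The representative probe of *Pik3r3* was at -2.81, -2.34 and -2.68 with pinosylvin and -3.09, -3.70 and -3.31 with resveratrol, with no overlap.

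For each measured gene, the gene outside the pathway list with the most similar pattern over the 12 arrays was found among 10690 genes by Pearson's r, as a description. It was *Scnn1a* for *Insr* (r = 0.975), *Cbx7* for *Irs1* (0.906), *Tm2d1* for *Irs2* (0.861) and *Csgalnact2* for *Pik3r1* (0.936). It was *Asah2* for *Pik3ca* (0.942), *Trip6* for *Akt1* (0.967), *Lrrc8b* for *Akt2* (0.961) and *Evi2a* for *Ptpn1* (0.986). The 12 arrays fall into 4 groups and share the slides.

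Promoter windows of 300 bases from RefSeq, on the rat assembly GRCr8, were found for 8 of the 9 genes, all but *Irs2*. They were searched on both strands for letters bound by factors with known ties to insulin signalling or to stress. The core of FOXO sites, TGTTTAC, was found in the windows of 2 of the 8 genes, beside 3.78% of all 33469 windows. FOXO factors are inactivated by Akt, so 30 bases of the window of *Insr*, one of the 2, are shown with the match in capitals, 5′ to 3′ on the strand of the gene, at chr12:6128885-6128914 on the minus strand.
*Insr*: acgggccgcgtTGTTTACtggccggagtcg
The match begins 100 bases before the start of the gene in the table. None of the 8 windows held TGACGTCA (the cyclic AMP response element, in 1.83% of all windows), TGACNNNGC (the core of the antioxidant response element, in 12.1%) or CACGTG (the E-box, in 6.42%). A match describes the letters of a window and not a bound site, and the absence of a match concerns these letters in this window only.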

How the data were processed

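RNA of rat L6 myotubes was measured on 12 arrays, and the groups were taken from the labels. The authors deposited the output of Agilent Feature Extraction 12.0.0.7 for each array. Its processed signal, deposited as an intensity, had the background subtracted within the array and no normalization between arrays, and the spot and background median signals are intensities without correction. The deposited marks for saturation, outliers and signal well above background are of the unit other, 0 or 1 per spot. The authors also deposited a table of normalized log2 values for 25848 probes, used as an alternative. The methods of the study give limma for the processing and name no method of normalization. The deposited values lay close to the log2 median signals after quantile normalization, with a median absolute difference of 0.00881 to 0.0111 per array. That table and quantile normalization are therefore not independent alternatives.

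Each array held 58717 spots other than controls, with 0 saturated. Processed signals were put on a log2 scale, outlier spots were left out, the spots of a probe were averaged, and the 75th percentile over the probes of the array was subtracted. Testing was limited to probes with the above-background mark on every array of 1 or more groups. limma 3.58.1 in R 4.3.3 fitted a mean per group with eBayes, and p-values were adjusted by Benjamini-Hochberg within a comparison. Symbols came from a RefSeq gene table of the assembly GRCr8, which named 21109 probes (46.3%).

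Named genes were the 9 genes, the nearest gene by pattern for each, the markers, and of the other pathway genes up to 4 rises and 4 falls per comparison with the control and 3 each way between the stilbenes, all past the threshold with no overlap of arrays. The members and lists were chosen with earlier results of these data known. Genes of the counts at an unadjusted p, the probes of *Igf1r* and *Gsk3b* shown in detail and the levels of *Pik3r3* were chosen after their values were seen.

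Replicate numbers come from the labels, which give 3 experiments. As a check of whether they pair the arrays, each array's deviations from its group mean were correlated across probes with those of the same-numbered array of the other group. The correlation was 0.191 to 0.744, over 0.1 in all 18 pairs and highest for replicate 3. In 6 of the 18 the best match had another number, each time for an array of replicate 1 or 2, which share a slide. The check thus does not settle pairing by number within slide 1. For replicate 3, alone on slide 2, experiment and slide cannot be told apart. The numbers of the labels were still taken to pair the arrays, and values with the replicate block are given where they change a call or a count.

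The alternatives were quantile normalization, normexp (offset 50) with either normalization, the deposited table, no filter, a filter asking for the above-background mark on all 12 arrays, the percentile over the probes it keeps, a block for replicate number or for slide, outlier spots kept, eBayes with trend and robust settings, only the 6 arrays compared, each slide alone, the mean over the probes of a gene, and each array left out. The files lack the mean spot signal, so normexp used the median. The percentile over spots was an alternative chosen after seeing the data. Features of proteins were not analysed here. Of the 2 promoter windows with a match, 1 is not reported here.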

Additional observations from a re-analysis of the deposited data

How the results depend on the processing

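Of 1008 recomputed log2 differences of the 8 genes that have a test, 934 kept their direction and side of the threshold. Of the 352 values, slide 2 included, that belong to the 16 differences past the threshold, 1 changed sign: *Pik3ca*, GR24 minus resveratrol, was 0.04 with the mean over the probes of a gene, where GR24 minus control was 0.14, both because that setting adds the probes that went the other way. The other reversals were of differences that passed no threshold, and their cause was not tested. For GR24 minus control, *Irs2* was 0.03 and *Akt1* 0.07 with quantile normalization, 0.02 and 0.08 with normexp and quantile normalization, 0.02 and 0.08 in the deposited table, and 0.07 and 0.07 with the percentile over spots. On slide 1 *Irs2* was 0.08 in this comparison, *Ptpn1* -0.01 for resveratrol minus control, and *Akt1* -0.01 for GR24 minus pinosylvin. For GR24 minus resveratrol *Irs1* was 0.03 with normexp and the 75th percentile, 0.01 with normexp and quantile normalization, 0.02 in the deposited table and 0.08 with the percentile over spots. For pinosylvin minus resveratrol *Insr* was 0.01 with normexp and the 75th percentile, 0.00 with the percentile over spots and 0.02 on slide 1. There *Pik3ca* was -0.02 with normexp and the 75th percentile, -0.00 with the percentile over probes above background on all 12 arrays, and -0.05 on slide 1. The percentile over spots, chosen after seeing the data, moved the median of all tested probes by 0.10 for GR24 minus control and by 0.10 for GR24 minus resveratrol.

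When arrays were omitted singly, the differences that crossed 0 ranged, for GR24 minus control, from -0.16 to 0.09 for *Irs2* and from -0.12 to 0.05 for *Akt1*. They ranged for GR24 minus resveratrol from -0.14 to 0.06 for *Irs1* and from -0.00 to 0.06 for *Akt2*, and for GR24 minus pinosylvin from -0.02 to 0.15 for *Akt1*. For pinosylvin minus resveratrol they ranged from -0.12 to 0.08 for *Insr*, from -0.03 to 0.06 for *Pik3ca* and from -0.02 to 0.15 for *Akt1*. Member counts ranged from 1 to 2 lower for GR24 minus control and for GR24 minus pinosylvin, and from 1 to 2 higher and 0 to 1 lower for resveratrol minus control. Counts of the other pathway genes ranged from 1 to 2 higher for pinosylvin minus control, from 0 to 1 lower for resveratrol minus control, and from 1 to 4 higher and 0 to 3 lower for pinosylvin minus resveratrol. The probes past the threshold ranged from 2148 to 2716 for pinosylvin minus resveratrol, and fewer arrays give each such fit less precision.

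Member counts that changed were as follows. For GR24 minus control, 2 were lower with eBayes trend and robust settings (25.7% of all features) and 0 with the mean over probes (26.8%). For resveratrol minus control, 1 was higher with normexp and the 75th percentile (6.53%), in the deposited table (7.83%), with no filter (2.35%) and on slide 1 (8.06%), and 0 were lower with no filter (3.53%), with the 6 arrays compared (6.68%) and with the mean over probes (11.4%). For pinosylvin minus resveratrol, 1 was higher with normexp and quantile normalization, in the deposited table, with either percentile alternative, with either block and with eBayes trend and robust settings, each time *Akt2*, where 5.67% to 14.7% of all features were higher. For GR24 minus pinosylvin, 2 were lower with only probes above background on all arrays, the slide block, eBayes trend and robust settings and slide 1, 3 with the replicate block, and 0 with the mean over probes. The shares of all features lower in that comparison were 27.3%, 32.4%, 27.1%, 29.5%, 32.3% and 27.3% in the same settings. The counts of 2 and 3 out of 8 thus lie near the general share, and the count of 0 lies below it.

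Counts of the other pathway genes moved too. For pinosylvin minus control, 1 was higher with no filter, beside 2.25% of all probes, and 2 with the percentile over probes above background (9%), with the 6 arrays compared (4.46%) and on slide 1 (7.08%), where 1 was lower (7.59%). For resveratrol minus control, 4 were higher with normexp and the 75th percentile (6.53%), 1 was lower with quantile normalization (8.23%), normexp and quantile normalization (8.2%), the deposited table (7.33%) and the percentile over spots (10.2%), and 2 with the percentile over probes above background (10.5%). For pinosylvin minus resveratrol, 0 were higher and 0 lower with no filter (2.35% and 1.98%), 1 higher and 0 lower with the 6 arrays compared (5.7% and 4.86%), and 1 lower on slide 1 (5.78%). For GR24 minus resveratrol, 5 were lower with the percentile over spots (20.2%). With the slide block, 9 were higher and 2 lower for pinosylvin minus control, beside 16.6% and 12.5% of all tested probes, 6 and 5 for resveratrol minus control, beside 14.5% and 13.8%, and 7 and 6 between the stilbenes, beside 14.7% and 11.9%. With the replicate block the counts were 9 and 2, 5 and 5, and 8 and 7.

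Probes past the threshold numbered 2409, 2680 and 1975 with no filter, which tests more probes, 6947, 6769 and 6323 with the replicate block, and 7074, 6869 and 6443 with the slide block, for pinosylvin minus control, resveratrol minus control and pinosylvin minus resveratrol. With the 6 arrays compared the first was 2479. Beside *Irs2* and *Akt2*, the replicate block changed the call of no other member. Slide 2 has 1 array a group, so it gave 48 values with no test and no counts. Of these 6 changed sign, none of a difference past the threshold: for GR24 minus control *Akt1* (0.17), for pinosylvin minus control *Insr* (-0.06, in place of 0.14) and *Ptpn1* (0.02), for resveratrol minus control *Irs2* (-0.00, in place of 0.12), for pinosylvin minus resveratrol *Akt1* (-0.03) and for GR24 minus resveratrol *Irs1* (0.14).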

Other observations

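Markers of other cells were read on the same scale. Of 6 markers of undifferentiated myoblasts, 5 were tested, and with GR24 *Id2* (1.22) and *Hes1* (0.65) were higher and *Myf5* (-0.88) was lower. With pinosylvin 1 was higher and 2 lower, and with resveratrol 1 was higher. The sum of their signals, which is set by the brightest probe, that of *Myf5*, and serves only to compare arrays, was 6.54, 6.27 and 6.98 on the control arrays and 5.17, 5.29 and 5.05 with GR24. Of 3 leukocyte markers, *Ptprc* and *Cd3e* were not well above background on any array, and *Cd68* was higher with GR24 (2.67, adjusted p = 4.11e-07 in limma). Of the adipocyte markers *Adipoq* and *Lep* were not well above background on any array, *Plin1* had no probe, and *Cfd* was higher with pinosylvin (0.41) and not past the threshold with GR24 (-0.05). Of 3 endothelial markers 2 were tested and none passed the threshold with GR24 in limma, with 1 (*Tek*, -0.53) at an unadjusted p under 0.05. The third, *Pecam1*, was too dim to test, with a mean level of -6.23 and no control array above background. Its mean was -4.46 with 2 arrays above background with GR24, -4.59 with 2 with pinosylvin, and -5.60 with 1 with resveratrol. None of 3 hepatocyte markers could be tested.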
